A study of Mus musculus with 2 samples.

Results

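The 10 genes described here, Coq3, Coq4, Coq5, Coq6, Coq7, Coq8a, Coq9, Coq10a, Coq10b and Pdss2, encode proteins that make coenzyme Q (ubiquinone) or keep it working in mouse mitochondria. They were taken by gene symbol, and they are 10 of the 15848 annotated genes that had a read in at least 1 of 2 heart libraries. All 10 had reads in both libraries, 2280 in replicate 1 and 1992 in replicate 2. The tissue was whole heart of untreated female B6CASTF1/J mice aged 2 months, an F1 hybrid whose name joins B6 and CAST parents, and all samples formed 1 group of 2 libraries, each from 2 µg of total RNA. The biosample labels number the animals 03 and 04, but the description of each library names animal 03 and the donor identifier is shared. Whether the spread between the libraries is that of animals is therefore not settled, and no comparison between conditions exists.

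Coenzyme Q is a lipid of the inner mitochondrial membrane that carries electrons from complexes I and II, and from other dehydrogenases, to complex III. A quinone head, derived from tyrosine, is joined to an isoprenoid tail built through the mevalonate pathway, and a series of methylations, hydroxylations and a decarboxylation then finishes the head on the matrix side of the membrane. Several of these enzymes work together in a complex, and inherited loss of COQ genes causes primary coenzyme Q deficiency, in which muscle, brain, kidney and heart can be affected.

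Each read is 1 sequenced cDNA molecule, assigned to a transcript model, so a gene's level is its read number per 1000000 reads on annotated genes (CPM). Replicate 1 had 859191 such reads and replicate 2 had 707758, which makes 1 read worth 1.16 and 1.41 CPM. A count of 0 allows up to 3 reads, or 3.49 and 4.24 CPM. Counting error is the only error that the intervals, floors and p-values below include, since each count comes from 1 library. A test between the libraries compares only these 2 libraries. No molecular identifiers were used in the counts, so copies of the same molecule were not set apart. In bulk tissue, fewer cells of a type and less RNA per cell cannot be told apart. All 7 cardiomyocyte markers were read, at 52047 and 57402 CPM in sum, with Myh6 at 30444 and 34817 CPM and Atp2a2 at 10069 and 12292 CPM. Red blood cell markers summed to 32227 and 29577 CPM, fibroblast markers to 1415 and 1376 CPM, smooth muscle and pericyte markers to 541 and 565 CPM, endothelial markers to 289 and 298 CPM, and macrophage markers to 144 and 119 CPM with Fcgr1 at 0. Without a fold minimum, Myh6 and Atp2a2 were higher, and Pln, Hba-a1 and Hba-a2 lower, in replicate 2. Liver markers summed to 1.16 and 0 CPM, with Alb and Apoa1 at 0, no lung marker was read, and the skeletal muscle markers summed to 3.49 and 4.24 CPM, with Myh1, Myh2, Myh4 and Tnnt3 at 0. The adipocyte markers summed to 113 and 45.2 CPM, with Cfd called lower in replicate 2, at 95.4 and 41.0 CPM, and Lep at 0. Their part in the levels below was not tested.

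The sequences shown next are from places at which the reads of a gene divided between alternative transcripts. For Coq8a, reads began at alternative noncoding first exons, and the bases just upstream of the 2 main annotated starts are given (RefSeq promoter table, GRCm38.p6, minus strand, chr1:180196021-180196270 and chr1:180193486-180193602). Capitals mark CCAAT or GGGCGG on either strand. The second stretch is shorter because the first exon of Coq8a-203 lies immediately above it.
Coq8a-201 upstream: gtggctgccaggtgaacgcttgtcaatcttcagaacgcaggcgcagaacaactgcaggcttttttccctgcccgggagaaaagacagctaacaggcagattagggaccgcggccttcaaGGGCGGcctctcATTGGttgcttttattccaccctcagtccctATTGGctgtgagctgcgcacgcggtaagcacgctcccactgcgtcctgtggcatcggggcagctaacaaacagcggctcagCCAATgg
Coq8a-217 upstream: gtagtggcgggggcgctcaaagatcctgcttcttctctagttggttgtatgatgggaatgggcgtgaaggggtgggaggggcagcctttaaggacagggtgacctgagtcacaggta

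For Coq10a the alternative first exons are coding, so the choice changes the start of the protein. Their coding parts (mm10, GENCODE M21, minus strand, chr10:128368698-128368837 and chr10:128368519-128368562) are shown with the start codon in capitals. Another annotated form, Coq10a-201, has 30 more bases at the start of exon 3 (chr10:128365216-128365245), in capitals between the neighbouring coding bases.
Coq10a-207 first exon: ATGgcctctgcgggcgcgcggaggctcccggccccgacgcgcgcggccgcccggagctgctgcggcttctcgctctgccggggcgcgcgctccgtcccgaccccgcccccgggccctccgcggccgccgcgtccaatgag
Coq10a-205 first exon: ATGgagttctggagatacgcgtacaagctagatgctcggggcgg
Coq10a-201 exon 3 start: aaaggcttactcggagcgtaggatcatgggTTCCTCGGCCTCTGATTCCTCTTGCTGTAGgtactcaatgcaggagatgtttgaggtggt

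The 3 places next shown are examples of those where reads left out coding bases, each with the omitted bases in capitals. They are exon 6 of Coq9, skipped in an annotated transcript (chr8:94851851-94851955, plus strand), the last 42 bases of exon 7 of Coq8a (chr1:180170343-180170384, minus strand) and the first 4 bases of exon 5 of Coq9 (chr8:94850515-94850518, plus strand), and the last 2 of these are absent from the annotation.
Coq9 exon 6: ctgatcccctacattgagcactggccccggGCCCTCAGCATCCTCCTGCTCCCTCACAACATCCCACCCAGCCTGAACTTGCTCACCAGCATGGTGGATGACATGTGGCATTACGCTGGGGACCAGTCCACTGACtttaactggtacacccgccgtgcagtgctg
Coq8a exon 7 end: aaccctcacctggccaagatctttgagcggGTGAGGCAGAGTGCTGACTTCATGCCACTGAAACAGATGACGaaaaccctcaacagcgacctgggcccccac
Coq9 exon 5 start: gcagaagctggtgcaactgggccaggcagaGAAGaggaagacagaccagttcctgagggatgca

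The coenzyme Q genes spanned a 42.5-fold range of mean CPM in heart, from Coq8a at the top to Coq4 and Coq10b at the bottom. Together they made 2654 CPM in replicate 1 and 2815 CPM in replicate 2 (mean 2734 ± 114, SD, n = 2 libraries). Coq8a and Coq9 alone gave 50.6% and 53.4% of these reads. The levels are taken below in the order of the pathway, from tail to head to accessory proteins.

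Pdss2, which with Pdss1 forms the synthase of the isoprenoid tail, had 27 reads in replicate 1 and 21 in replicate 2, or 31.4 and 29.7 CPM (mean 30.5 ± 1.24, SD, n = 2). The libraries lay well within each other's counting intervals, 20.7 to 45.7 CPM and 18.4 to 45.4 CPM. Its partner Pdss1 was read at 27.9 and 31.1 CPM, so the library ranges of both subunits of the tail synthase overlapped.

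The methyltransferases of the ring were read more often. Coq5, the C-methyltransferase, had 339 and 256 reads, or 395 and 362 CPM (mean 378 ± 23.2). Coq3, the O-methyltransferase of both O-methylation steps, had 187 and 138 reads, or 218 and 195 CPM (mean 206 ± 16.0). Both read somewhat lower in replicate 2, and the counting intervals of the libraries overlapped for each. On annotated models alone Coq3 had 54.7 and 69.2 CPM, because most of its reads lay on a single-exon model described below.

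The hydroxylases and their partner ranged widely. Coq7, the hydroxylase that acts late in the pathway, had 131 and 98 reads, or 152 and 138 CPM (mean 145 ± 9.90). Coq6, a flavin-dependent monooxygenase of the ring, had 65 and 64 reads, or 75.7 and 90.4 CPM (mean 83.0 ± 10.4). Coq9, a lipid-binding protein that presents substrate to Coq7, had 567 and 478 reads, or 660 and 675 CPM (mean 668 ± 10.9). Coq9 thus exceeded its partner Coq7 in both libraries, also per length, at 369 and 378 CPM per kb against 167 and 151 CPM per kb of the leading annotated model.

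Coq4, a component of the synthesis complex that takes part in decarboxylation of the ring, had 16 and 12 reads, or 18.6 and 17.0 CPM (mean 17.8 ± 1.18), the lowest mean of the genes. Coq10b, described next, was lower than Coq4 in replicate 1 and higher in replicate 2. Coq8a, an atypical kinase-like protein with ATPase activity that supports the complex, was the highest with 587 and 586 reads, or 683 and 828 CPM (mean 756 ± 102). Coq8a stood at percentile 98.9 of all genes with a read, and Coq4 at percentile 61.2.

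Coq10a and Coq10b encode related START-domain proteins that bind coenzyme Q and support its use in respiration. Coq10a had 346 and 326 reads, or 403 and 461 CPM (mean 432 ± 40.9). Coq10b had 15 and 13 reads, or 17.5 and 18.4 CPM (mean 17.9 ± 0.643). Coq10a held 95.8% of the pair's reads in replicate 1, with a Wilson 95% interval of 93.3 to 97.5%, and replicate 2 gave 96.2% (93.6 to 97.7%). Coq10b has a near-identical copy, Gm4899, 95.4% identical over 719 bases, which had 0 reads in both libraries, and how reads were assigned between them is not stated. A less similar copy, Gm19480 (85.9% over 690 bases), also had 0 reads, as did E330011M16Rik, which overlaps Coq10b on the opposite strand and shares 221 bases with its transcript. Coq8a shares 366 transcript bases with Cdc42bpa, which overlaps its end on the opposite strand and had 10 reads in each library.

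Between neighbours in the order by CPM (Coq8a, Coq9, Coq10a, Coq5, Coq3, Coq7, Coq6, Pdss2, Coq10b, Coq4), the values of the 2 libraries overlapped only for Coq10b and Coq4. Counting intervals overlapped in both libraries for Pdss2 with Coq10b and for Coq10b with Coq4, and in 1 library for Coq8a with Coq9, Coq10a with Coq5, Coq3 with Coq7 and Coq7 with Coq6. Per kb of the leading annotated model the order became Coq9, Coq10a, Coq8a, Coq5, Coq7, Coq3, Coq6, Pdss2, Coq10b, Coq4. Coq8a, with the longest leading model at 4026 bases, dropped to place 3 at 170 and 206 CPM per kb, overlapping Coq5 at 194 and 178 CPM per kb. Counted on annotated models only, Coq3 moved from place 5 to place 7 in CPM.

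**Figure D1:**
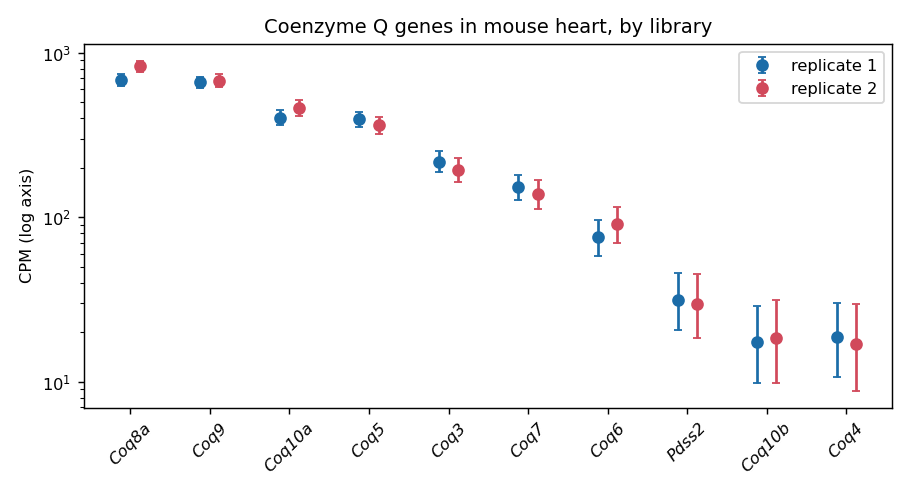
Level of each coenzyme Q gene in CPM (log axis) in replicate 1 (blue) and replicate 2 (red), bars showing the exact Poisson 95% interval of each count. Coq8a, Coq9, Coq10a and Coq5 lie above 300 CPM in both libraries, and Pdss2, Coq10b and Coq4 below 50 CPM.

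No coenzyme Q gene was called between the libraries. In the exact conditional binomial test (two-sided, adjusted by Benjamini-Hochberg over 9334 genes), 0 of the 10 were called at an adjusted p below 0.05 and at least 2-fold, where 0.321% of all tested genes were called. edgeR's exact test with a preset coefficient of variation of 0.1 or 0.2 also called 0 of the 10. Without the fold minimum 0 of the 10 passed, against 1.15% of all, and 1 of the 10 had an unadjusted exact p below 0.05, against 8.53%. That gene was Coq8a, 1.21-fold higher in replicate 2 (exact 95% interval 1.08 to 1.36; exact binomial test, adjusted p = 0.0751). With single-exon genomic models left out, its adjusted p in the same exact test was 0.0198, at a log2 ratio of 0.31, still under the fold minimum. Of the 10 genes, 5 were higher and 5 lower in replicate 2, with a median log2 ratio of -0.02 against 0.05 over all genes tested. All 10 lay within 1.5-fold, as did 76.7% of all genes tested. That share covers every gene with at least 10 reads in total and was not matched to the depth of the 10 genes. For Coq4, with the widest interval to the low side, the ratio's 95% interval ran from 0.393 to 2.05, and for Coq10b from 0.461 to 2.37. A 2-fold difference either way was therefore not excluded for these genes at this depth.

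**Figure D2:**
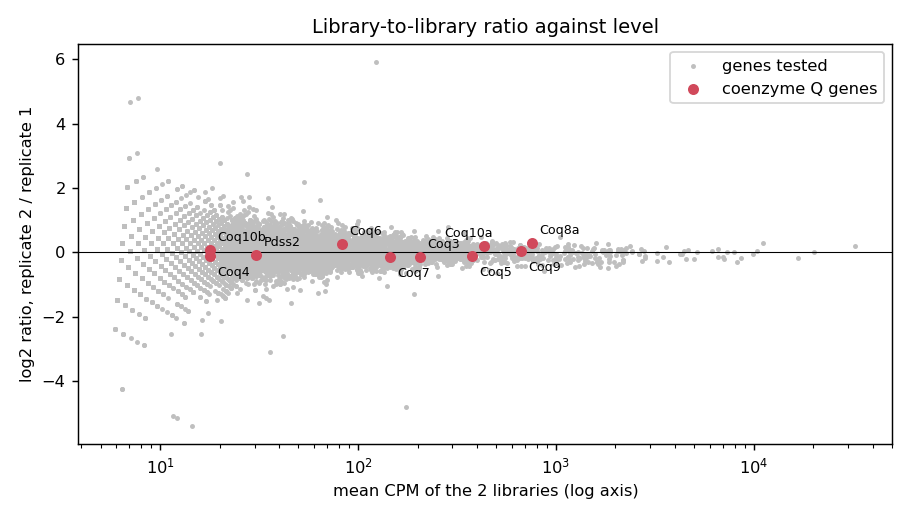
Log2 ratio of replicate 2 to replicate 1 against the mean CPM of the 2 libraries (log axis) for the 9334 genes tested (grey) and the 10 coenzyme Q genes (red). The coenzyme Q genes lie between -0.16 and 0.28.

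Other genes of the pathway were read at up to 411 CPM in a library. Of 23 other synthesis and precursor genes, 22 had reads in each library, 20 were deep enough to test and 0 were called, with a median log2 ratio of 0.01. The highest were Stard7, a lipid transfer protein that moves coenzyme Q and phosphatidylcholine, at 383 and 411 CPM, Rtn4ip1, a mitochondrial oxidoreductase, at 208 and 208 CPM, and Coq2, the enzyme that joins head and tail, at 197 and 194 CPM. Pptc7, a mitochondrial phosphatase, followed at 83.8 and 83.4 CPM. Coq8b, the paralog of Coq8a, had 12 and 6 reads, or 14.0 and 8.48 CPM, far below Coq8a (Coq8b and Pdss1 were chosen for mention as partners of these genes after their values were seen). Hpd had no read.

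Genes for enzymes that reduce or use ubiquinone, including subunits and electron donors of such enzymes, summed to 33750 and 32702 CPM over 31 chosen genes. The 10 coenzyme Q genes summed to 2654 and 2815 CPM. The list of 31 counts several subunits of the same complexes and leaves out others, so the 2 sums are not levels per enzyme. Uqcrc1, a core subunit of complex III, had 4367 and 4511 CPM, and Sdha, the flavoprotein of complex II, 2164 and 2367 CPM. Of 29 tested, 0 were called, and without the fold minimum 2 were lower in replicate 2, where 0.75% of all tested genes were (0 of the 10 coenzyme Q genes). These were Uqcrq, a small complex III subunit (3544 and 2971 CPM; log2 ratio -0.25, exact binomial test, adjusted p = 1.76e-07), and Ndufs7, a complex I subunit (2358 and 2002 CPM; log2 ratio -0.24, exact binomial test, adjusted p = 4.21e-04). Chdh and Prodh2 had no read.

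Most reads of the coenzyme Q genes matched annotated transcripts. Models are classed as annotated (same intron chain as a GENCODE M21 transcript), incomplete (mostly part of such a chain), new combination of annotated splice sites, new splice site, or genomic (overlapping the gene without matching its splicing). For Coq8a the incomplete class also held chains with an intron absent from the annotation. One such chain was classed as new splice site in replicate 1 (10 reads) and as incomplete in replicate 2 (3 reads). Annotated models held 84.8% of the genes' reads in replicate 1 and 86.0% in replicate 2, against 76.0% and 75.7% over all genes. The median over the 8 coenzyme Q genes with at least 20 reads was 90.6% in each library, against 81.8% and 82.0% over all genes of that depth. Of these 8, only 6 in replicate 1 and 5 in replicate 2 lay above the median over all genes. By two-sided Fisher's exact test with Benjamini-Hochberg adjustment, 0 of 8 coenzyme Q genes differed between the libraries in this share, where 0.129% of 4651 genes did. At an unadjusted p below 0.05 there was 1, Coq3, against 4.58% of all (Fisher's exact test, p = 0.0493, adjusted p = 1).

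Coq5 and Coq7 were nearly all annotated, at 97.6% and 97.7% for Coq5 and at 95.4% and 93.9% for Coq7. Coq10a followed at 95.1% and 94.5%, Coq9 at 90.5% and 92.1%, and Coq6 at 90.8% and 89.1%. Coq8a, with more reads and more models (42 and 39) than the others, had 81.4% and 81.9%. Coq3 was the exception at 25.1% and 35.5%. Coq4, Coq10b and Pdss2 had at most 27 reads per library, and their shares had wide intervals, such as 46.8 to 91.1% for Coq4 in replicate 2.

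**Figure D3:**
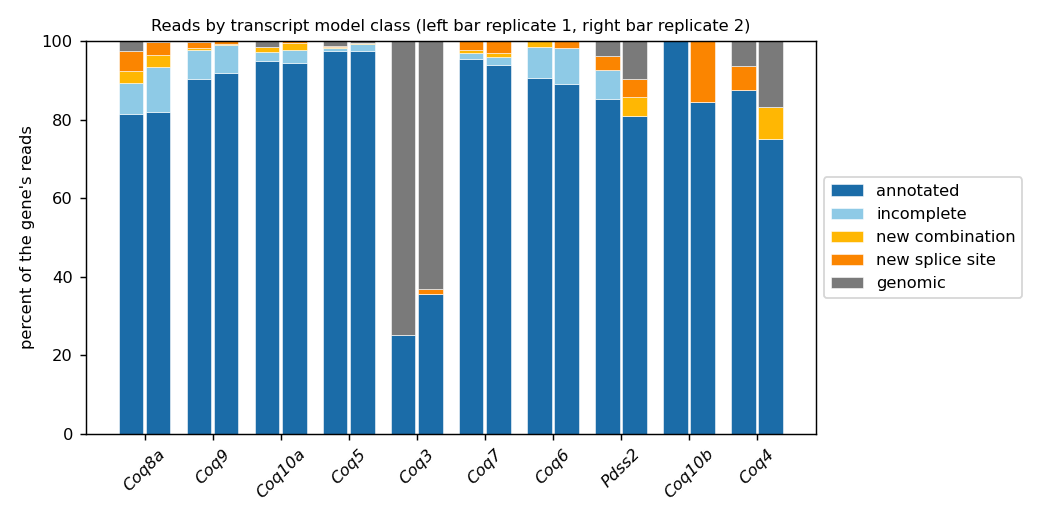
Percent of each gene's reads on annotated, incomplete, new-combination, new-splice-site and genomic models, replicate 1 in the left bar and replicate 2 in the right bar of each pair. Coq3 alone has most of its reads on genomic models, 74.9% and 63.0%.

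Most Coq3 reads (gene on chromosome 4, plus strand, mm10) lay on 1 single-exon genomic model in the last exon. Replicate 1 had 140 of 187 Coq3 reads on it (74.9%, with a Wilson 95% interval of 68.2 to 80.5%) and replicate 2 had 87 of 138 (63.0%, 54.7 to 70.6%). Only 1.30% of genes with at least 20 reads in replicate 1, and 1.84% in replicate 2, had as high a genomic share, and the median gene had 0.834% and 0.447%. The model was listed as ending at position 21910757 in replicate 1 and 21910762 in replicate 2, 121 and 126 bases after the last coding base of the annotated transcript and 1405 and 1400 bases short of its annotated end. The hexamer AATAAA, the usual polyadenylation signal, began 18 and 23 bases before these ends, and 8 and 7 of the next 20 transcript bases were A. In replicate 2 the model was listed over 344 bases, from the first base of the last exon, and in replicate 1 as a single base. The reads' own ends were not used here, so the length of the reads on it is not known.

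**Figure D4:**
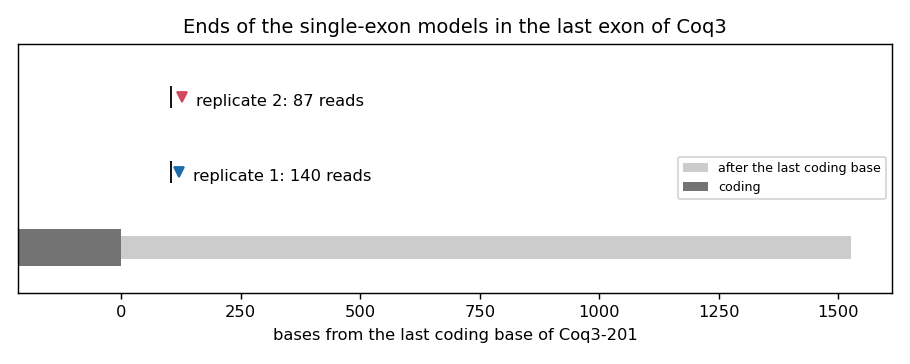
Listed ends of the single-exon models in the last exon of Coq3, in bases from the last coding base of the annotated transcript (triangles, replicate 1 blue and replicate 2 red), with the start of AATAAA as a vertical tick and the exon drawn to scale below. Both ends lie within 126 bases of the last coding base, and the annotated end lies 1526 bases after it.

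Spliced Coq3 reads on the annotated transcript numbered 47 and 49, so the annotated-model level did not show the lower value of replicate 2 that all reads did (log2 ratio 0.35 against -0.16). A new donor site 192 bases into the first intron, at position 21879988, was used in 2 reads of replicate 2. The added 192 bases are a multiple of 3, but their sequence was not read here. In replicate 1 the same site was used by 3 reads that were credited to the upstream gene Pnisr, on a spliced model also listed as ending at 21910757.

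Coq8a (chromosome 1, minus strand) started from several noncoding first exons. On annotated models Coq8a-201 took 426 of 478 reads (89.1%, Wilson interval 86.0 to 91.6%) in replicate 1, and 443 of 480 (92.3%, 89.6 to 94.4%) in replicate 2. Coq8a-217 took the other 52 (10.9%) and 37 (7.71%). Both encode the same 1935 coding bases from a start codon in exon 2, and they differ in the first exon, whose upstream sequences are printed above. The difference between the libraries did not pass (Fisher's exact test, p = 0.0959, adjusted p = 1). In that test 0 of 4 coenzyme Q genes with enough reads were called, where 0.0521% of 1920 genes were called, and at an unadjusted p below 0.05 there were 0 of 4 against 2.66%.

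Counting every read that crossed the junction into the start-codon exon, also on unannotated models, 434 of 522 reads in replicate 1 (83.1%, 79.7 to 86.1%) and 458 of 518 in replicate 2 (88.4%, 85.4 to 90.9%) came from the first exon of Coq8a-201. The exon of Coq8a-217 gave 55 (10.5%) and 38 (7.34%), and that of Coq8a-203 gave 8 (1.53%) and 9 (1.74%). An exon absent from the annotation, with its donor at position 180192064, 3956 bases below the start of Coq8a-201, gave 15 (2.87%, 1.75 to 4.69%) and 10 (1.93%, 1.05 to 3.52%). The most-read model that begins with it had different listed starts in the 2 libraries. In replicate 1 (10 reads) the start was 180193483, inside the first exon of Coq8a-217, which runs from 180193485 to 180193436. In replicate 2 (3 reads) it was 180192152. Whether these reads began at a separate exon or at the start of Coq8a-217 was not tested. The counting intervals of the unannotated exon and of the annotated one of Coq8a-203 overlapped in both libraries. Introns from the exons of Coq8a-217 (2 and 3 reads) and Coq8a-203 (1 and 3 reads) ended at an acceptor of the unannotated exon at 180192152. For each of these 2 introns, 1 and 3 reads lay on a chain that continued into the start-codon exon. Those reads are among the 15 and 10 above, and in them the unannotated exon was not the first exon.

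**Figure D5:**
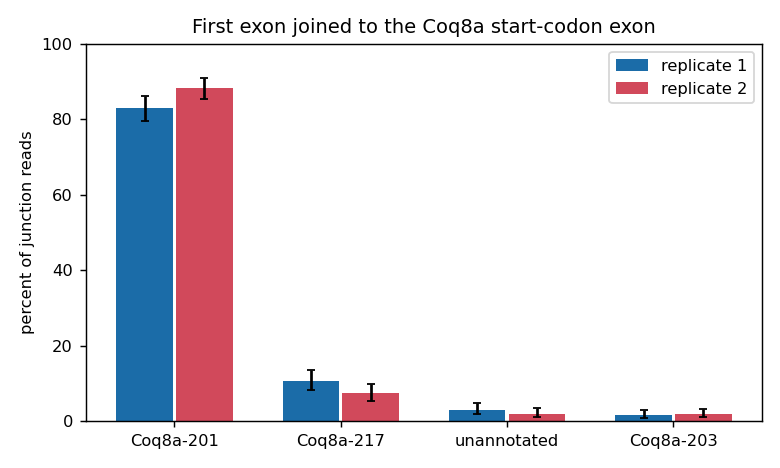
Percent of reads across the junction into the start-codon exon of Coq8a that came from each of the 4 most used upstream exons, in replicate 1 (blue) and replicate 2 (red), with Wilson 95% intervals. The exon of Coq8a-201 gives 83.1% and 88.4%, and the unannotated exon 2.87% and 1.93%.

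Coq8a also held most of the unannotated splicing of these genes. It had the most reads and, at 15, the most exons in its leading model, and the counts were not scaled to the junctions read. Of 60 introns absent from the annotation, 38 were in Coq8a, and of the 11 seen in both libraries 8 were. The most used in coding sequence removed the last 42 bases of exon 7 (2 and 5 reads), a loss of coding length in frame. The removed stretch, printed above, begins with GT, the usual first letters of an intron. Another left out an 87-base exon in frame (1 and 1 reads). A shift of 6 coding bases in exon 2, also in frame, was seen in 0 and 3 reads, and a further unannotated upstream exon was joined to the start-codon exon in 1 and 1 reads. Across the 10 genes 42 of the 60 introns rested on 1 read, and of 77 intron chains with a new combination or splice site 13 were in both libraries and 58 rested on 1 read.

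Unannotated Coq8a models were mostly listed as ending short of the annotated end, 66 reads at position 180166488 in replicate 1 and 84 reads at 180166500 in replicate 2, which is 1250 and 1262 bases before it. These are 1 listed end per model, and the reads' own ends were not used. A 5-exon incomplete model was listed to the annotated end in replicate 1 (16 reads) and to 180166500 in replicate 2 (13 reads). The new combination starting at 180193662 was listed to 180166488 in replicate 1 (8 reads) and to the annotated end in replicate 2 (9 reads). Neither AATAAA nor ATTAAA occurred in the 40 bases before either position, and 2 and 7 of the next 20 transcript bases were A. Single-exon reads of the last exon were listed differently in the 2 libraries. In replicate 1 they lay on a genomic model of 1914 bases that reaches the annotated end (15 reads), and in replicate 2 on an incomplete model of 957 bases that does not (12 reads) and a genomic model of 366 bases at the annotated end (1 read). The genomic shares of Coq8a, 2.56% and 0.171%, therefore count different stretches.

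Coq9 (chromosome 8, plus strand) was read mainly as its 9-exon annotated transcript, with 487 of 513 annotated-model reads in replicate 1 (94.9%, 92.7 to 96.5%) and 414 of 440 in replicate 2 (94.1%, 91.5 to 95.9%). A short annotated transcript of the retained-intron type had 21 and 22 reads, but its only intron is also the last intron of the leading one, so its reads cannot be told apart from shortened reads of that one. Skipping of exon 6, printed above, removes 105 bases or 35 codons in frame. It was seen in 6 of 518 reads that covered the choice in replicate 1 (1.16%, 0.532 to 2.50%) and in 4 of 438 in replicate 2 (0.913%, 0.356 to 2.32%). The 4-base shift of the exon 5 acceptor, which changes the frame, was seen in 3 and 1 reads. Another new acceptor, which removes 82 bases of exon 7 out of frame, was seen in 3 and 0 reads. A chain that keeps 3 introns of the leading transcript had 1 and 1 reads. Coq9 begins close to Ciapin1 on the opposite strand, which had 102 and 95 reads on models that overlap Coq9.

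Coq10a (chromosome 10, minus strand) was read mainly as Coq10a-207, with 311 of 329 annotated-model reads in replicate 1 (94.5%, 91.5 to 96.5%) and 290 of 308 in replicate 2 (94.2%, 91.0 to 96.3%). Coq10a-205, with the other coding first exon, had 13 (3.95%) and 11 (3.57%). It has 651 coding bases against 747 in Coq10a-207, and the first exons printed above show that their protein starts have different codons. Coq10a-201, with 10 further codons and no stop among them, had 5 (1.52%) and 7 (2.27%). The second intron, of 2791 bases, was kept in 2 and 6 reads. The intervals of the libraries overlapped for each of these shares.

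Coq6 was read as its 12-exon annotated transcript in 57 of 59 and 56 of 57 annotated-model reads. The rest lay on a shorter one whose introns are all shared with it. Coq3, Coq4, Coq5, Coq7, Coq10b and Pdss2 each had reads on only 1 annotated model. For Coq5 that was 331 and 250 reads, and for Coq7 it was 125 and 92, although GENCODE lists 3 and 5 models for them. Coq5 had 1 unannotated chain in both libraries, with 1 read each, in which exon 5, of 89 bases, was skipped out of frame. Coq7 likewise had 1, with 1 read each, in which 95 intron bases were kept, out of frame.

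Promoter windows of 300 bases (250 before to 50 after the start, RefSeq, GRCm38.p6) were found for 9 of the 10 genes, 12 windows in all. They were searched on both strands for 6 motifs, none of which holds another. The Ets motif TTCCGG was in 4 of 12 windows, of Coq3, Coq6 and Pdss2, against 14.9% of all 32851 windows. Of these 4, 2 are windows of Coq3 that share 93 bases. GGGCGG was in 5 of 12 (35.7% of all), CCAAT in 4 of 12 (37.4%) and CACGTG in 2 of 12 (7.15%). The CACGTG matches were in the windows of Coq10b and Coq4, and the Coq4 window is set on a start 766 bases from that of the only annotated Coq4 model with reads. TATAAA was in 0 of 12 (13.6%), and so was the estrogen-related receptor motif TNAAGGTCA (1.28%). The window of Coq8a-201 held GGGCGG and CCAAT, and that of Coq8a-217 held none of the 6. These matches describe letters in the windows and carry no measurement of binding.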

How the data were processed

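Long-read RNA-seq of heart was analysed in 2 libraries of 1 group. The deposited values were raw, unpooled counts, whole numbers of long reads for each transcript model. The authors aligned to mm10 and counted against GENCODE M21, per the text deposited with the files, and the annotation files carry TALON attributes. The aligner, versions and filters are not given in the sources used here. Other deposited values, per the file headers, were model lengths, exon numbers and coordinates.

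Gene counts were the sum over all models of each gene, without spike-ins, and CPM used the total on annotated genes. A minimum of 10 reads over both libraries was set for the exact conditional binomial test (two-sided, scipy 1.17.1), adjusted by Benjamini-Hochberg and called at adjusted p below 0.05 and at least 2-fold. Log2 ratios added 0.5 reads. Shares of annotated models and of leading isoforms were tested with Fisher's exact test in genes with at least 20 reads in each library. Shares have Wilson intervals and counts exact Poisson intervals, at 95%. Intron chains were matched exactly between libraries. With 1 library on each side, edgeR's quasi-likelihood test has no residual degrees of freedom. edgeR 4.0.16 and DESeq2 1.42.0 gave alternative scalings, and edgeR's exact test with a preset coefficient of variation of 0.1 or 0.2 was an alternative. Scripts were tested on simulated data.

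The members and lists were chosen with earlier results of these data known. All members were named. Of each member, annotated models with at least 10% of annotated reads in a library could be named, as could unannotated models with 3 reads in 1 library or seen in both. Of the 2 pathway lists, the 4 highest genes, every called gene and genes with no read were named. Other models, introns and marker genes named, Pdss1 and Coq8b were chosen after their values were seen.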

Additional observations from a re-analysis of the deposited data

Results flagged for a closer look

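In replicate 1, 5 reads that use introns of Coq3 were credited to the upstream gene Pnisr, which lies outside the counts of Coq3 and above the 3 reads that a count of 0 allows. Replicate 2 had 0 such reads. Of the 5, 3 used the donor 192 bases into the first intron of Coq3, and 1 with 19 exons ran from Pnisr into Coq3. All 5 lay on spliced models listed as ending at 21910757, where the single-exon Coq3 model of replicate 1 was also listed as ending.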

How the results depend on the processing

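No coenzyme Q gene was called between the libraries under any scaling, filter, model set or preset variation run. Over all genes the number called was 30, against 15 on annotated models only, 107 with no fold minimum, and 12 and 4 in edgeR's exact test with a preset coefficient of variation of 0.1 and 0.2. Of 90 alternative log2 ratios of the 10 genes, 5 changed sign, none of them called: Coq3 on annotated models (0.35) and without genomic models (0.40), Coq9 with TMM factors (-0.0094) and DESeq2 size factors (-0.044), and Coq10b on annotated models (-0.15). The summed level, 2734 CPM, was 2336 CPM on annotated models, 2571 CPM without genomic models and 2528 CPM without Coq3, an alternative chosen after seeing the data, and 2654 to 2815 CPM with either replicate left out. The pooled share on annotated models, 84.8 to 86.0% with either replicate left out, was 90.9% without genomic models and 90.0% without Coq3 (also chosen after seeing the data). The number of genes with another share between the libraries rose from 6 to 57 when genomic models were left out. The cause was not tested. Matching introns within 10 bases gave 14 unannotated chains of replicate 1 that were also classed as new in replicate 2, against 10 exact matches. The order per kb of the leading model was added after seeing the data, since the read-weighted length of Coq3, 893 bases, is shortened by its 1-base model; with that length Coq3 came at place 3. Depth limits Coq4, Coq10b and Pdss2, which had at most 27 reads per library. No paired analysis was possible because there is only 1 group.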

Other observations

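Unannotated genes on the strand opposite to a coenzyme Q gene held 10 reads in replicate 1 and 6 in replicate 2, with 4 and 4 of these at Coq10a.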
